A study of Mus musculus with 54 samples.

Results

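Microglia are the resident macrophages of the brain, and 9 genes used to recognise them were followed here in RNA-seq of 3 brain regions of Mbd5+/GT mice and their WT littermates. The genes are common markers of microglia, listed by name: Cx3cr1, P2ry12, Tmem119, Csf1r, C1qa, C1qb, C1qc, Aif1 and Trem2, 9 of the 47069 genes counted. The Mbd5+/GT mice were heterozygous for a gene-trap insertion (pU-21B) in the second intron of Mbd5, an allele made in the embryonic stem cell line Ayu21-B205 that lowers Mbd5 expression and is carried in the germline, and the WT mice carried no trap. All mice were on a C57BL/6 background and 8 weeks old. The cerebellum, the cortex and the striatum of each of 10 Mbd5+/GT and 8 WT mice gave 1 polyA RNA library per region, 54 in all, and the mice came from 3 litters, of which litter 1 was all female, litter 2 all male with 1 WT mouse, and litter 3 of both sexes. Whole tissue was sequenced, so fewer microglia and less RNA per microglial cell cannot be told apart in any value below.

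Microglia enter the brain early in development, live on signals through the receptor Csf1r, and survey the tissue with motile processes. Neurons hold them in a resting state through ligands such as Cx3cl1, which binds Cx3cr1, and damaged cells attract their processes through nucleotides, which bind P2ry12. Trem2 senses lipids and debris and signals through the adaptor Tyrobp, C1qa, C1qb and C1qc encode the 3 chains of C1q that start the classical complement pathway, Tmem119 encodes a membrane protein of unknown role, and Aif1 encodes the actin-binding protein known to histologists as Iba1. Most of the 9 genes are also read in the macrophages of the brain's borders, whereas Tmem119 and P2ry12 are used to tell microglia from them.

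The gene counts of a library summed to between 25295973 and 49027399 (median 29073866). Mbd5, the gene carrying the trap, was lower in the Mbd5+/GT libraries everywhere, with a log2 fold change of -0.34 (SE 0.05) for the cerebellum, -0.49 (SE 0.05) for the cortex and -0.51 (SE 0.05) for the striatum. The regions were then checked with 6 markers each of their own neurons. The summed markers were under 50% of the region's median, a limit set after seeing the data, in 7 libraries. In the cerebellum these were the Mbd5+/GT library of mouse M755, at 1.38% of the median, and the WT library of mouse M754, at 30.0%. In the striatum they were the WT libraries of mice M754, at 5.39%, and M761, at 16.2%, and the Mbd5+/GT libraries of mice M763, M756 and M755, at 35.6%, 41.5% and 44.7%. No cortex library was below the limit. The library labelled cerebellum of mouse M755 therefore goes against its label. So does the striatum library of M754, whose striatal markers summed to 137 CPM (counts scaled to the library total) and its cortical markers to 1150 CPM, both within the range of the cortex libraries (108 to 1261 CPM and 724 to 1599 CPM). The striatum libraries of M756, at 1056 and 1385 CPM, and M755, at 1136 and 962 CPM, also lay within both ranges. These sums do not set them apart from cortex libraries. The 7 libraries are called low in their neuron markers below, and the main results are given with and without them. The CPM values that follow were further scaled with TMM factors. On that scale the striatal markers of the cortex libraries summed to a median of 859 CPM in WT and 393 CPM in Mbd5+/GT. They ranged from 117 to 1293 CPM over all cortex libraries, and the cortical markers from 34.6 to 1424 CPM over the striatum libraries. The limit takes no account of markers of another region, and their part in the comparisons was not tested.

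On the mouse genome build GRCm38, Cx3cr1 (ENSMUSG00000052336) lies at chr9:119901616-120069879, P2ry12 (ENSMUSG00000036353) at chr3:59216272-59262871 and Tmem119 (ENSMUSG00000054675) at chr5:113793729-113800516, all on the minus strand. The 3 C1q genes are neighbours on the minus strand of chromosome 4, C1qb (ENSMUSG00000036905) at chr4:136880129-136886187, C1qc (ENSMUSG00000036896) at chr4:136889804-136893065 and C1qa (ENSMUSG00000036887) at chr4:136895917-136898803. Aif1 (ENSMUSG00000024397) lies at chr17:35170991-35176068 on the minus strand and Trem2 (ENSMUSG00000023992) at chr17:48346401-48354147 on the plus strand, and the identifier of Csf1r is ENSMUSG00000024621. P2ry12 lies inside Med12l, which is read from the opposite strand and shares 9 exonic bases with it, and Csf1r shares 873 exonic bases with Hmgxb3 on the opposite strand. Whether the counting used the strand is not given in the sources used here, so reads of these pairs may not be fully separated.

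Spi1, also called PU.1, is the factor that sets the macrophage lineage, and it binds purine-rich sites with a GGAA core. RefSeq promoter windows (GRCm38.p6, 250 bases before to 50 after the start) were at hand for 6 of the 9 genes. GAGGAA, searched on both strands, stood in 4 of these 6 windows, against 28.3% of all 32851 windows, and the longer GAGGAAGT, which contains GAGGAA, in 1 of 6 against 3.2%. The 250 bases before the start are shown for C1qb and C1qc, neighbours whose levels moved together, for Trem2, and for P2ry12, whose levels moved apart from those of the others. Each is written in the direction of its gene, and capitals mark GAGGAA, GAGGAAGT or their reverse complements. They span chr4:136886201-136886450 (minus strand), chr4:136892915-136893164 (minus strand), chr17:48346151-48346400 (plus strand) and chr3:59262986-59263235 (minus strand).
C1qb: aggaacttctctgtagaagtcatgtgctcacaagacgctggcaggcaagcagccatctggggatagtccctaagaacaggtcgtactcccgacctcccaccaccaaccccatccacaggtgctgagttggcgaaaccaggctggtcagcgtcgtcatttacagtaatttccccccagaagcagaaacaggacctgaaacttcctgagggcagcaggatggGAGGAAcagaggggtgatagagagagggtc
C1qc: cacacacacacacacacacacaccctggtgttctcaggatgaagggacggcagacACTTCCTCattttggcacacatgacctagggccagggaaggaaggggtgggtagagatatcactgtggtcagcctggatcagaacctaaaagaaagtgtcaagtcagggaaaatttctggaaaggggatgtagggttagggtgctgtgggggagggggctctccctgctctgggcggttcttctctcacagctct
Trem2: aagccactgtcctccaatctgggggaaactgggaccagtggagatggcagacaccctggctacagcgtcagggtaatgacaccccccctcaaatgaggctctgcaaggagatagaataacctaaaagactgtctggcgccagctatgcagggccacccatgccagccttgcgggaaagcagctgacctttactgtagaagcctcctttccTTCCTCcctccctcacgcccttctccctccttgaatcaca
P2ry12: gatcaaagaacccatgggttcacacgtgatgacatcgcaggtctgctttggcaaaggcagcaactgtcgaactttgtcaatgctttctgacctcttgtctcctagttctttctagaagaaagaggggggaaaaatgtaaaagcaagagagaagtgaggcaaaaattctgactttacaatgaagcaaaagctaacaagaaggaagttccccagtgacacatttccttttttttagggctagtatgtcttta
The match lay 30 bases before the start in C1qb, 193 before it in C1qc and 40 before it in Trem2. It lay 7 bases before the start in Aif1, and the windows of P2ry12 and Cx3cr1 held neither run of letters. The GGAA core alone was not searched for. It also stands unmarked in each sequence shown, in P2ry12 for example within aaggaagt. A match is a description of the letters only.

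The first question was how the 9 genes stood in each region. All 9 passed the filter on low counts in every fit, and each was detected in every library. Csf1r, the receptor for the growth factors Csf1 and Il34, encoded on chromosome 18, ranged from 20.5 to 79.8 CPM in the cerebellum (median 29.7), from 57.1 to 137 CPM in the cortex (median 107) and from 90.7 to 161 CPM in the striatum (median 126). Cx3cr1, the receptor for neuronal Cx3cl1, ranged from 7.60 to 34.3 CPM in the cerebellum (median 10.5), from 30.6 to 62.0 CPM in the cortex (median 48.3) and from 36.7 to 68.8 CPM in the striatum (median 52.6). For both receptors the 2 highest cerebellar values were those of mice M755 and M754, and the other 16 cerebellar libraries lay below every cortex and striatum library.

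P2ry12, the nucleotide receptor, ranged from 7.44 to 22.8 CPM in the cerebellum (median 9.17), from 33.5 to 56.8 CPM in the cortex (median 39.6) and from 19.0 to 45.2 CPM in the striatum (median 28.2). It was the only one of the 9 with its highest median in the cortex. Trem2, the lipid receptor, ranged from 2.35 to 10.1 CPM in the cerebellum (median 3.89), from 10.9 to 17.8 CPM in the cortex (median 13.8) and from 7.64 to 26.1 CPM in the striatum (median 18.4). Tmem119 ranged from 3.93 to 14.4 CPM in the cerebellum (median 6.52), from 16.9 to 34.0 CPM in the cortex (median 24.3) and from 19.2 to 36.5 CPM in the striatum (median 31.1). Neither the cortex nor the striatum libraries overlapped the cerebellar ones for Tmem119, with all libraries kept.

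Of the C1q chains, C1qa ranged from 7.87 to 33.0 CPM in the cerebellum (median 14.1), from 31.0 to 51.1 CPM in the cortex (median 39.0) and from 24.5 to 86.6 CPM in the striatum (median 53.0). C1qb had medians of 15.4, 42.8 and 64.5 CPM in the same order of regions, and C1qc of 13.6, 38.9 and 50.3 CPM. The 3 chains kept nearly the same proportions everywhere. C1qb held 36.5% ± 3.05 of the C1q counts in the cerebellum, 36.1% ± 2.11 in the cortex and 36.9% ± 2.34 in the striatum (SD, n = 18 each), C1qa between 31.7% and 33.2%, and C1qc between 30.2% and 32.2%. Aif1 was the lowest by CPM, from 0.811 to 4.58 CPM in the cerebellum (median 1.80), from 4.11 to 7.90 CPM in the cortex (median 6.04) and from 4.13 to 11.9 CPM in the striatum (median 9.23). In the cerebellum Aif1 rested on 20 to 146 counts per library, so its counting error there is larger than that of the other genes.

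**Figure D1:**
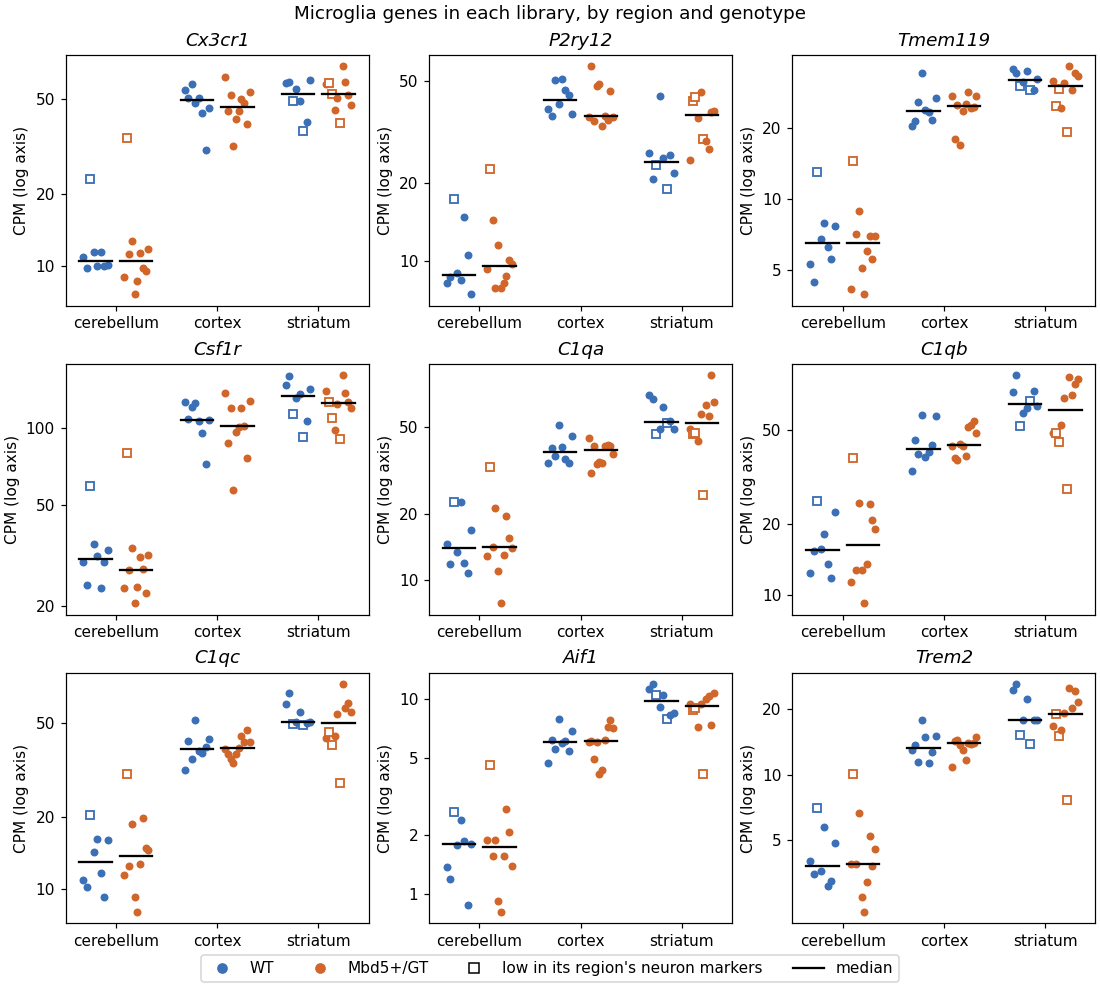
CPM of each gene (log axis) in the 54 libraries by region, with WT libraries in blue, Mbd5+/GT libraries in orange, black bars at the group medians and open squares for the 7 libraries low in their region's neuron markers. All 9 genes are lower in cerebellum, the open squares stand at or near the top of the cerebellar groups, and P2ry12 alone has its highest median in the cortex.

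Levels of different genes were compared per kilobase of transcript. On the merged exons of each gene, the mean levels in the cortex were 41.0 ± 6.72 CPM per kilobase for C1qb, 37.5 ± 4.88 for C1qa, 20.5 ± 2.44 for C1qc, 18.1 ± 3.72 for Csf1r, 16.5 ± 2.70 for P2ry12, 10.5 ± 1.80 for Cx3cr1, 10.5 ± 1.72 for Tmem119, 3.92 ± 0.707 for Aif1 and 2.75 ± 0.336 for Trem2 (SD, n = 18). In this order C1qb and C1qa differed by less than 1 SD, as did C1qc and Csf1r, Csf1r and P2ry12, and Cx3cr1 and Tmem119. The merged exons overstate the length of some genes, 4946 bases for Trem2 against 1088 in its longest coding transcript. On the longest coding transcript, a scale added after seeing the lengths, Trem2 stood at 12.5 ± 1.53, above Tmem119 and Cx3cr1, C1qc at 32.8 ± 3.92 and Aif1 at 6.86 ± 1.24, and C1qb and C1qa stayed the 2 highest.

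The second question was how far the regions differed. All 9 genes were higher in the cortex than in the cerebellum, by log2 fold changes of 1.29 (SE 0.13) for C1qa to 1.96 (SE 0.12) for P2ry12, that is by 2.45-fold to 3.88-fold, and the largest adjusted p was 1.36e-12 for C1qb (edgeR quasi-likelihood test, Benjamini-Hochberg). Of all 20477 genes tested, 33.3% were called higher in this comparison, and 16.5% were higher with a log2 fold change of at least 1, as all 9 were. Every cortex library lay above every cerebellum library for 4 of the 9, P2ry12, Tmem119, C1qc and Trem2, against 7.88% of all genes. Without the libraries low in their neuron markers the groups did not overlap for any of the 9, against 12.1% of all genes, and the log2 fold changes ran from 1.44 for C1qa to 2.20 for Cx3cr1.

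All 9 were higher in the striatum than in the cerebellum as well, from 2.78-fold for P2ry12 (log2 fold change 1.48, SE 0.12) to 4.95-fold for Aif1 (log2 fold change 2.31, SE 0.15), with 1.41e-15 as the largest adjusted p, for P2ry12. In this comparison 37.3% of all genes were called higher and 17.5% were higher with a log2 fold change of at least 1. The groups did not overlap for Cx3cr1, Tmem119 and Csf1r, against 5.35% of all genes, and without the libraries low in their neuron markers for all 9, against 12.2%. The log2 fold changes were then 1.69 for P2ry12 to 2.58 for Aif1. Within mice, each gene was higher in striatum than in cerebellum in 18 of 18 mice, and higher in cortex than in cerebellum in 18 of 18, except C1qa in 17 of 18.

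Other lists of macrophage genes were set beside these. Of 28 further microglia genes, 27 were called higher in cortex than in cerebellum and 27 in striatum than in cerebellum, with medians of 1.5 and 1.65 on the log2 scale, against medians of -0.02 and 0.00 over all genes tested, and the 1 exception was Itgb5, an integrin subunit, at -0.85 (SE 0.08) and -0.41 (SE 0.08). Among the largest differences from cerebellum in that list were those of Fcrls, a surface protein of microglia, at 2.27 (SE 0.14) in cortex and 2.38 (SE 0.14) in striatum, and Slc2a5, a fructose transporter, at 2.22 (SE 0.20) and 2.55 (SE 0.20). Those 27 and 27 were the same counts without the libraries low in their neuron markers. Of 12 genes of border macrophages, 8 were higher and 1 lower in cortex than in cerebellum, against 33.3% and 35.5% of all genes. The higher ones were led by the scavenger receptors Stab1 at 1.13 (SE 0.08) and Mrc1 at 0.98 (SE 0.13). In striatum against cerebellum 1 was higher and 4 lower, against 37.3% and 38% of all genes. The summed level of the 12 was 20.7 to 28.8 CPM in the cerebellum, 36.3 to 60.3 CPM in the cortex and 25.4 to 51.4 CPM in the striatum. None of the 12 was at 0 in every library of a region. The summed level of the 9 genes was 72.6 to 267 CPM, 285 to 434 CPM and 272 to 550 CPM in the same order. The part of border macrophages in the values of the 9 genes was not tested.

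Some ligands of the receptors differed between regions too. Cx3cl1, the neuronal ligand of Cx3cr1, was higher in cortex than in cerebellum by 3.31 (SE 0.19) and in striatum by 3.47 (SE 0.19) on the log2 scale, at a mean of 69.6 CPM in cerebellum, 686 in cortex and 770 in striatum. Il34, a ligand of Csf1r, was higher by 2.87 (SE 0.13) and 2.84 (SE 0.13), from a mean of 6.87 CPM in cerebellum to 50.04 in cortex and 49.2 in striatum. Csf1, the other ligand of Csf1r, was lower in cortex than in cerebellum by a log2 fold change of -0.45 (SE 0.08), at 18.7 CPM against 25.6 CPM. Of the 12 genes in this list of ligands and partners, 8 were higher and 2 lower in cortex than in cerebellum, against 33.3% and 35.5% of all genes. In striatum 8 were higher and 1 lower, against 37.3% and 38% of all genes. Cd47, a neuronal signal against engulfment, was lower in both, by -0.27 (SE 0.11) in cortex and -0.72 (SE 0.11) in striatum.

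Of 21 further complement genes tested, 16 were higher and 4 lower in cortex than in cerebellum, against 33.3% and 35.5% of all genes. In striatum 12 of them were higher and 3 lower, against 37.3% and 38% of all genes. The largest increases belonged to Csmd1, a neuronal complement inhibitor, at 2.68 (SE 0.15) in cortex and 1.88 (SE 0.14) in striatum, C1ra, a protease bound to C1q, at 2.08 (SE 0.20) in cortex, and Sez6, a neuronal complement regulator, at 1.99 (SE 0.12) in striatum. C3, the central component on which C1q acts through the cascade, was lower in cortex than in cerebellum at -2.12 (SE 0.49), with means of 0.366 CPM and 1.86 CPM. Serping1, the inhibitor of the C1 proteases, was lower in both, at -0.90 (SE 0.14) and -1.49 (SE 0.14). The genes of the pathway therefore did not all move in 1 direction.

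Genes that microglia raise in disease did not move as 1 group. Of 22 tested, 9 were higher and 5 lower in cortex than in cerebellum, and 12 higher and 2 lower in striatum, where 33.3% of all genes were higher and 35.5% lower in cortex, and 37.3% higher and 38% lower in striatum. Among them were Lpl, a lipase, higher by 3.56 (SE 0.32) and 4.44 (SE 0.33), and Spp1, osteopontin, lower by -2.22 (SE 0.28) and -2.23 (SE 0.28). Cst7 of this list had a mean of 0.108 CPM in cortex and 0.0427 CPM in cerebellum. Many genes of the list are also read in neurons or other glia. Of 16 antigen presentation and interferon genes, 1 was higher and 3 lower in cortex than in cerebellum, and 4 higher and 4 lower in striatum, with H2-D1, a class I molecule, lower by -1.78 (SE 0.11) and -1.57 (SE 0.11). Without the libraries low in their neuron markers 4 were higher and 3 lower in cortex. Of 14 genes of inflammatory signals, Tnf, Il6, Il10, Ccl2 and Ccl4 had medians below 0.1 CPM in each region, and 11 of the 14 could be tested, of which 5 were higher in cortex than in cerebellum and 7 in striatum. Of these Ptgs2, a prostaglandin synthase that cortical neurons also express, differed most, by 4.72 (SE 0.24) and 3.13 (SE 0.23). Of 14 genes of blood leukocytes, Cd3e, Cd3g, Ms4a1, Nkg7 and Ly6c2 had medians below 0.1 CPM in each region, and the summed list was 1.13 to 30.4 CPM.

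The striatum and the cortex were closer, and here the genes parted. Of the 9 genes, 6 were higher in striatum than in cortex, against 28.9% of all genes called higher, and 1, P2ry12, was lower, against 30.1% called lower. P2ry12 had a mean of 31.0 ± 8.67 CPM in the striatum and 41.9 ± 6.89 CPM in the cortex (SD, 18 libraries each), a log2 fold change of -0.48 (SE 0.12, adjusted p = 0.000631), and was lower in the striatum in 15 of 18 mice. Tmem119 was higher by 0.33 (SE 0.12, adjusted p = 0.0135), C1qa by 0.50 (SE 0.12, adjusted p = 0.000658), C1qb by 0.50 (SE 0.13, adjusted p = 0.00117) and C1qc by 0.39 (SE 0.11, adjusted p = 0.00304). Aif1 was higher by 0.60 (SE 0.14, adjusted p = 0.000288) and Trem2 by 0.48 (SE 0.13, adjusted p = 0.00184), each in 16 or 17 of 18 mice. The libraries of the regions overlapped for all 9.

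Cx3cr1 at 0.14 (SE 0.13, adjusted p = 0.367) and Csf1r at 0.26 (SE 0.13, adjusted p = 0.0766) did not pass the test. With the mouse as replicate block Csf1r passed it (log2 fold change 0.27, adjusted p = 0.0499), and without the libraries low in their neuron markers both did, Cx3cr1 at 0.22 (SE 0.08, adjusted p = 0.0186) and Csf1r at 0.37 (SE 0.10, adjusted p = 0.000956), while P2ry12 stayed lower at -0.44 (SE 0.10, adjusted p = 0.000378). The 1 mouse in which Trem2 and C1qb were lower in striatum than in cortex was M763, whose striatum library was among those low in their neuron markers. Other genes moved with this comparison. All 7 oligodendrocyte markers were higher in striatum, with a median of 1.2 on the log2 scale, and 10 of the 12 border macrophage genes were lower, with a median of -0.78, led by F13a1 at -1.59 (SE 0.15), Siglec1 at -1.55 (SE 0.25) and Mrc1 at -1.45 (SE 0.13). Med12l, in which P2ry12 lies, was lower too, at -0.73 (SE 0.11). In cortex against cerebellum Med12l stood at -0.51 (SE 0.11) and P2ry12 at 1.96 (SE 0.12). The part of these genes in the values of P2ry12 and the other 8 was not tested.

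**Figure D2:**
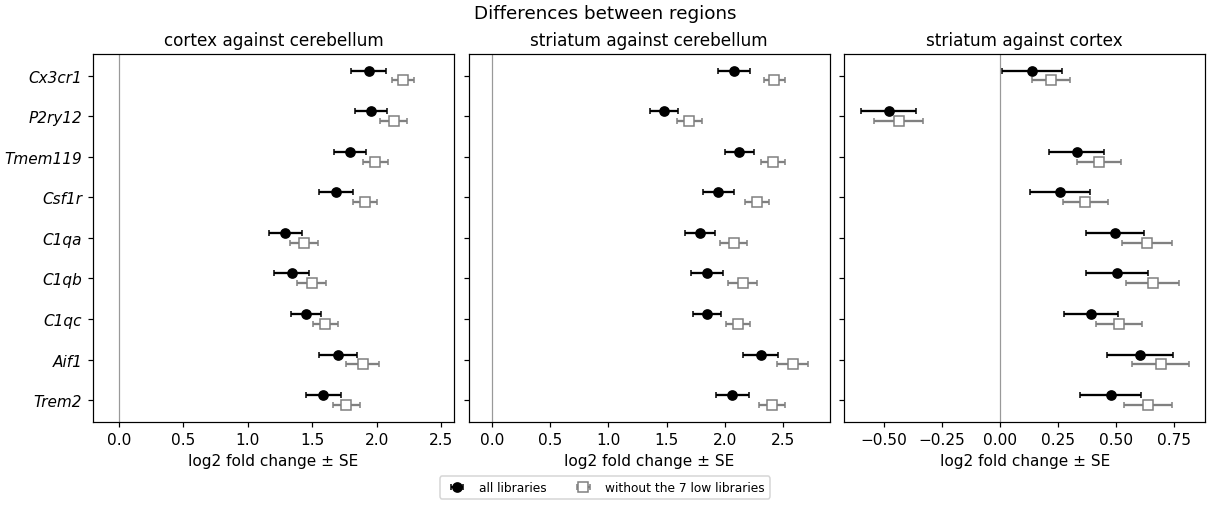
Log2 fold change with its SE (edgeR) of each gene between regions, over all libraries (filled) and without the 7 libraries low in their neuron markers (open). P2ry12 is the 1 gene left of 0 in striatum against cortex, at -0.48 and -0.44.

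**Figure D3:**
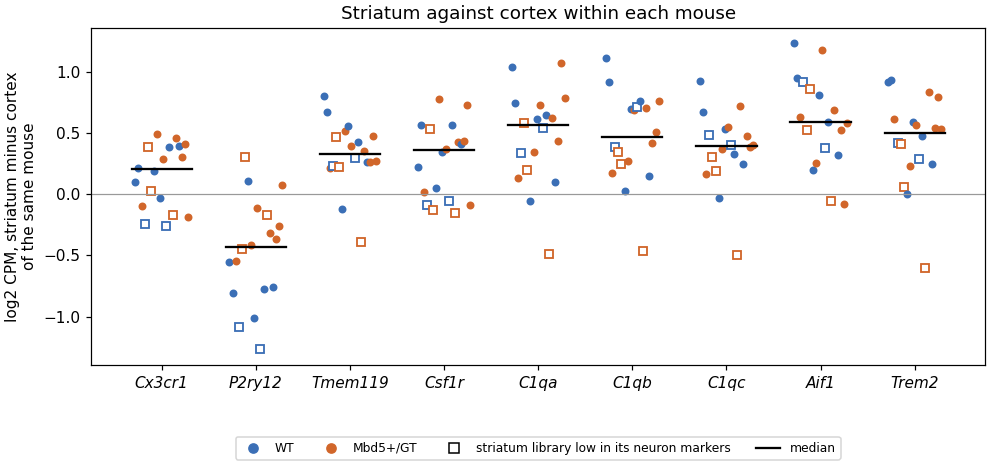
Difference in log2 CPM between the striatum and the cortex of the same mouse, 1 point per mouse and gene (WT blue, Mbd5+/GT orange, open squares for striatum libraries low in their neuron markers, bars at the medians). P2ry12 is below 0 in 15 of 18 mice, and the 8 other medians are above 0.

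The further microglia genes were also split between striatum and cortex, 13 higher and 6 lower of 28. Of all genes, 28.9% were called higher and 30.1% lower. The median of the list was 0.23, against 0.00 over all genes. Cd68, a lysosomal protein of macrophages, was higher by 0.68 (SE 0.11), Spi1 by 0.54 (SE 0.15) and Fcer1g, an adaptor of Fc receptors, by 0.50 (SE 0.11). Cd33, an inhibitory lectin, was lower by -0.77 (SE 0.12), Ptprc, the leukocyte phosphatase CD45, by -0.69 (SE 0.13) and Tgfbr1, a receptor for TGF-beta, by -0.67 (SE 0.11). Of the disease-associated list 11 were higher and 2 lower, with Fth1, ferritin heavy chain, at 1.00 (SE 0.15), Lpl at 0.89 (SE 0.28) and Ctsz, a lysosomal protease, at 0.77 (SE 0.10). Among the genes listed here for microglia, P2ry12 was therefore not the only one lower in striatum.

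The third question was whether the Mbd5+/GT allele changed these genes. None of the 9 was called in any region by edgeR's quasi-likelihood test with surrogate variables, nor by DESeq2. The background was just as low, 0.00551% of all genes called in the cerebellum, 0.0107% in the cortex and 0.00539% in the striatum. At an unadjusted p under 0.05, edgeR and DESeq2 both gave 0 of the 9 in cerebellum, 0 in cortex and 3 in striatum, against 2.75%, 8.47% and 7.44% of all genes by edgeR. In the cerebellum the log2 fold changes (Mbd5+/GT minus WT) ran from -0.13 (SE 0.10) for Csf1r to 0.10 (SE 0.08) for P2ry12, and in the cortex from -0.16 (SE 0.09) for Csf1r to 0.04 (SE 0.09) for C1qb. The SE of a gene lay between 0.06 and 0.15 in the cerebellum and between 0.05 and 0.11 in the cortex.

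The widest spread was in the striatum, where P2ry12 stood highest. P2ry12 ranged from 24.7 to 45.2 CPM in the Mbd5+/GT libraries (median 36.9) and from 19.0 to 43.6 CPM in the WT libraries (median 24.3). The groups overlapped, but 9 of 10 Mbd5+/GT libraries lay above the WT mean of 25.7 CPM. The log2 fold change was 0.27 (SE 0.09), with an adjusted p of 0.629 by edgeR, and over 8 alternatives it stayed positive, from 0.23 to 0.46, with adjusted p from 0.226 to 0.862. Within litters the mean log2 difference was 0.66 in litter 1, 0.58 in litter 2 and 0.37 in litter 3. The WT group of litter 2 was 1 mouse. In litter 3 the Mbd5+/GT libraries lay at 24.7, 41.5 and 43.3 CPM, against 20.8 to 43.6 CPM (median 24.9) in WT. All but the lowest of these Mbd5+/GT libraries were from M755 and M756, low in striatal neuron markers, and the litter 3 difference rested on them. The highest WT value was that of mouse M757, at 43.6 CPM, and the next was 26.3 CPM. Med12l, in which P2ry12 lies, had a mean of 36.5 ± 7.94 CPM in the 10 Mbd5+/GT striatum libraries. In the 8 WT striatum libraries its mean was 31.2 ± 6.97 CPM (SD). The part of Med12l reads in this difference of P2ry12 was not tested.

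Tmem119 in the striatum ranged from 19.2 to 36.5 CPM in the Mbd5+/GT libraries (median 30.1) and from 28.8 to 35.4 CPM in the WT libraries (median 31.8), with a log2 fold change of -0.16 (SE 0.06) and an adjusted p of 0.630 by edgeR. C1qb ranged from 28.05 to 83.6 CPM (median 60.3) against 51.5 to 85.0 CPM (median 64.5), with a log2 fold change of -0.17 (SE 0.07) and an adjusted p of 0.645. For both, the Mbd5+/GT range was the wider, and its lowest library was that of mouse M763. Without the libraries low in their neuron markers the log2 fold changes were 0.23 (SE 0.11) for P2ry12, -0.09 (SE 0.07) for Tmem119 and -0.07 (SE 0.06) for C1qb, and 0 of the 9 had an unadjusted p under 0.05. The C1q chains, Aif1, Trem2 and Tmem119 were lower in Mbd5+/GT in litters 1 and 3 and higher in litter 2, where the WT group is 1 mouse: for C1qa the mean log2 differences were -0.50, -0.27 and 0.45 in litters 1, 3 and 2.

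**Figure D4:**
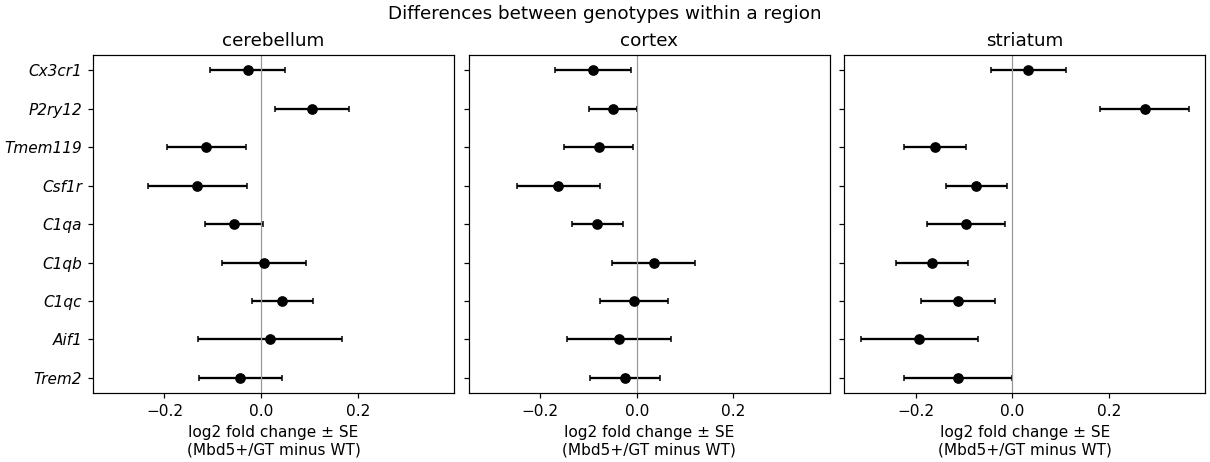
Log2 fold change with its SE (edgeR with surrogate variables) of each gene between Mbd5+/GT and WT libraries in cerebellum, cortex and striatum. All 27 values lie between -0.19 and 0.27, and P2ry12 in the striatum is the farthest from 0.

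Whether the genotype effect differed between regions was tested as such. None of the 9 was called in any of the 3 contrasts between regions (edgeR), nor was any gene of all those tested (0%). At an unadjusted p under 0.05, 0 of the 9 passed in cortex against cerebellum and in striatum against cerebellum, and 1, P2ry12, in striatum against cortex, at a difference of 0.52 (SE 0.24, adjusted p = 0.989), where 1.11%, 2.68% and 4.22% of all genes passed. Without the libraries low in their neuron markers 0 of the 9 passed, and that difference was 0.38 (SE 0.21). None of the genes in the other lists named above was called between genotypes in any region, and the median log2 fold change of the further microglia genes was -0.02 in cerebellum, -0.07 in cortex and -0.01 in striatum, with 17, 26 and 17 of the 28 genes below 0 and 0 of them called.

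Sex was compared with genotype as a term, although litters 1 and 2 were of 1 sex each. In the cerebellum and the cortex 0 of the 9 were called (edgeR), against 0.0330% and 0.0482% of all genes, and 1, P2ry12, had an unadjusted p under 0.05 in each, against 18% and 6.26% of all genes. It was lower in males at -0.54 (SE 0.20, adjusted p = 0.199) and at -0.27 (SE 0.09, adjusted p = 0.761). Without the cerebellar libraries of M754 and M755, both female, the first value was -0.28 (SE 0.14), and 0 of the 9 had an unadjusted p under 0.05. In the striatum Csf1r was called, against 8.84% of all genes. Csf1r ranged from 120 to 161 CPM in the striatum of males (median 140) and from 90.7 to 135 CPM in that of females (median 111), a log2 fold change of 0.35 (SE 0.08, adjusted p = 0.0195). It was not called with litter as a further term (0.32, adjusted p = 0.282), in litter 3 alone (0.31, adjusted p = 0.290) or without the libraries low in their neuron markers (0.28, adjusted p = 0.104). Of the 9 genes 8 had a log2 fold change above 0 in the striatum of males, 7 with an unadjusted p under 0.05 against 13.5% of all genes, and P2ry12 stood at -0.27 (SE 0.14, adjusted p = 0.204). Without the libraries low in their neuron markers, 2 of the 9, Cx3cr1 and Csf1r, were higher with an unadjusted p under 0.05, and 1, P2ry12, was lower, at -0.41 (SE 0.16, adjusted p = 0.148). The share of all genes was not computed for that fit, so these counts cannot be set against a background, and 0 of the 9 were called. With all libraries kept, 4 of 7 oligodendrocyte and 4 of 5 erythrocyte markers were called higher and 3 of 6 meninges and 3 of 12 border macrophage markers lower. Their part in the difference was not tested, and 0 of each of these lists were called without the libraries low in their neuron markers.

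The genes were last compared with each other from mouse to mouse, on log2 CPM less the genotype mean, as a description over the 18 mice of a region, whose libraries share depth and composition. The median Pearson's r over the 36 pairs was 0.812 in the cerebellum, 0.348 in the cortex and 0.70 in the striatum (Spearman's rho 0.702 in the cerebellum). Without the libraries low in their neuron markers it was 0.613 over 16 mice in the cerebellum and 0.533 over 13 in the striatum. The C1q chains followed each other closely, with a median r of 0.946, 0.697 and 0.897 in cerebellum, cortex and striatum. Cx3cr1 and Csf1r formed a second pair, with r of 0.950, 0.931 and 0.927. Without the libraries low in their neuron markers their r was 0.711 in the cerebellum and 0.921 in the striatum. Trem2 was as close to C1qa in the cerebellum (r 0.969) and to C1qc in the striatum (r 0.93). In the cortex these values were 0.439 and 0.530. In the cortex the r of Csf1r was -0.02 with C1qb and 0.02 with Trem2.

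P2ry12 stood apart from the other 8. The median r of its 8 pairs was 0.441 in the cerebellum, -0.319 in the cortex and 0.0327 in the striatum, where the pairs among the other genes had medians of 0.857, 0.50 and 0.767. The value in the cerebellum rested on mice M754 and M755, without which it was -0.25, against 0.713 for the pairs among the other genes. In the striatum, without its 5 libraries low in their neuron markers, it was -0.147 against 0.606. In the cortex its r ran from -0.522 with Csf1r to -0.0313 with Trem2. As a log2 difference from the mean of the other 8, P2ry12 stood at 0.14 ± 0.44 in cerebellum, 0.48 ± 0.33 in cortex and -0.38 ± 0.51 in striatum (SD, 18 libraries each), and in the striatum at -0.70 ± 0.41 in WT and -0.12 ± 0.44 in Mbd5+/GT libraries. The difference between genotypes in this measure was not tested, and its values include the libraries low in their neuron markers.

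**Figure D5:**
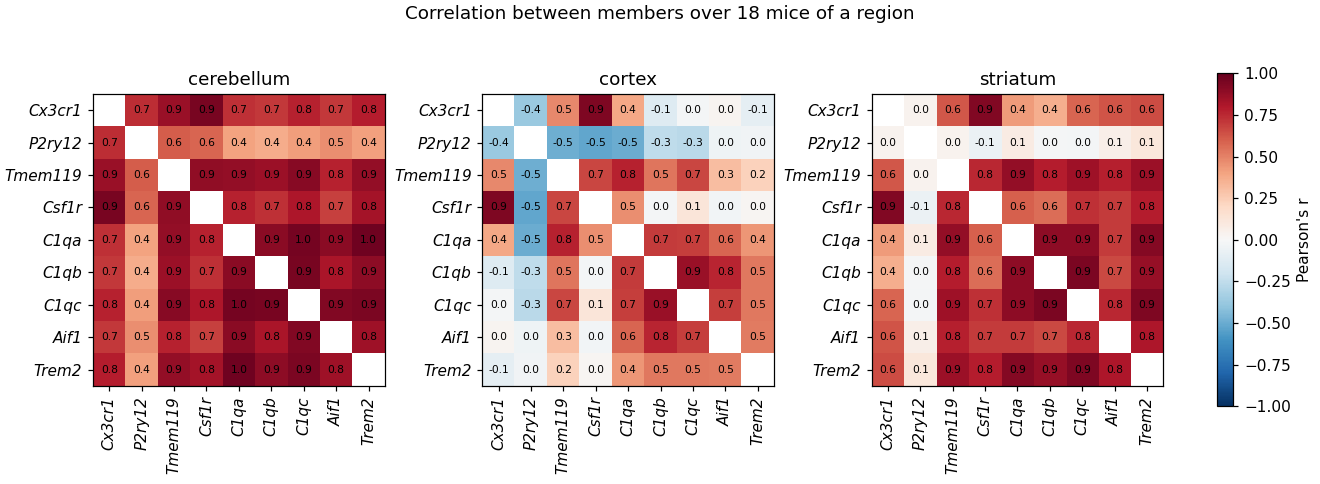
Pearson's r of log2 CPM, less the genotype mean, between each pair of genes over the 18 mice of a region (red positive, blue negative, values printed to 1 decimal). The row of P2ry12 is the palest in striatum, from -0.06 to 0.12, and below 0 throughout in cortex, from -0.52 to -0.03 (printed as 0.0), where Cx3cr1 and Csf1r reach 0.93.

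Outside the 9, the genes whose log2 CPM followed them most closely over the 54 libraries, less the mean of each region and genotype, were ranked by their mean r among 17212 genes. Among the 10 highest were Selplg at 0.781, Lin7b at 0.767, Pld4 at 0.765, Olfml3 at 0.757, Elovl1 at 0.750, Gal3st1 at 0.745, Aplp1 at 0.739, 2810468N07Rik at 0.737 and Itgb2 at 0.737. Selplg, Olfml3 and Itgb2 stand in the list of further microglia genes. Gal3st1 makes the myelin lipid sulfatide and is known from oligodendrocytes. Among the cerebellar libraries the summed oligodendrocyte markers were highest in mice M755 and M754, which also held the highest sums of the 9 genes, at 267 and 190 CPM. The part of oligodendrocyte content in this ranking was not tested. For the 9 themselves the mean r with the other 8 ran from 0.260 for P2ry12 to 0.745 for C1qc.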

How the data were processed

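The deposited table holds raw read counts per Ensembl gene, 1 library per mouse and region. According to the submitters' processing notes and the study's methods, the authors checked reads with FastQC 0.10.1, aligned them to GRCm38 with STAR 2.4.2 and counted them per gene with STAR. The strand setting is not given in the sources used here. ERCC spike-in rows, 0.0207% to 0.728% of a library, were left out.

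A gene entered a test where 8 or more libraries held more than 4 counts. Library sizes were scaled with TMM, and edgeR 4.0.16 (R 4.3.3) was used for robust quasi-likelihood tests, whose p-values were adjusted by Benjamini-Hochberg across every gene in the fit, with calls at an adjusted p under 0.05. Genotype was tested within a region with surrogate variables from sva 3.50.0 (2 in cerebellum, 4 in cortex, 4 in striatum), regions were compared over all 54 libraries in 6 groups of region and genotype, and sex was tested with genotype as a term. The SE is the log2 fold change divided by the root of the F statistic. Alternatives were DESeq2 1.42.0, other scalings, other count filters, no surrogate variables, litter as a term and the mouse as replicate block. Libraries low in their neuron markers were left out as an alternative chosen after seeing the data. Log2 CPM used a prior count of 2. The scripts were tested on simulated data.

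The 3 libraries of a mouse are paired by animal, and the deviations of the same mouse correlated with a median r of 0.223 between cerebellum and cortex, 0.0703 between cerebellum and striatum and 0.118 between cortex and striatum. Within a region a mouse is 1 replicate, and the p-values for genotype and sex measure the spread between mice. The main fits between regions held no term for the mouse and took the 54 libraries as separate. Their p-values therefore measure the spread between libraries, and only the fit with the mouse as replicate block used the pairing. The libraries labelled as repeated, 2 WT striatum libraries, were kept, and no pair of libraries within a group agreed within sampling noise (chi-square per gene of at least 9.61 over 219 pairs). Of the lists, at most 3 genes in each direction were named per comparison between regions, those with the largest called log2 fold change. Some genes that meet this rule are not reported here. Med12l was named for its overlap with P2ry12. The 9 genes and the lists were chosen with earlier results of these data known.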

Additional observations from a re-analysis of the deposited data

Results flagged for a closer look

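In 8 of the 54 groups of 1 gene, region and genotype, 1 library lay farther from the others than Dixon's 95% limit allows, where chance gives about 1 in 20 groups. The genes share libraries and their levels correlate, so the groups are not independent, and the 8 do not measure an excess over that rate. In the cerebellum the flagged libraries were those of the mice lowest in cerebellar neuron markers. Cx3cr1 was at 23.17 CPM in WT mouse M754, with the next library at 11.49, and at 34.35 CPM in Mbd5+/GT mouse M755, with the next at 12.78. Csf1r was at 58.99 CPM in M754, with the next at 34.95, and at 79.8 CPM in M755, with the next at 33.64.

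In the striatum, P2ry12 was at 43.61 CPM in WT mouse M757, with the next library at 26.29. Aif1 was at 4.126 CPM in Mbd5+/GT mouse M763, with the next at 7.182, and Trem2 at 7.644 CPM in the same library, with the next at 15.01. That library was among those low in striatal neuron markers. In the cortex, Cx3cr1 was lowest in WT mouse M762, at 30.59 CPM, with the next library at 44.0.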

How the results depend on the processing

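No called result changed direction under any alternative run, whereas differences that were not called, such as those between sexes in the cortex with litter as a further term, changed sign for some genes. For the comparisons between regions and between genotypes the number of the 9 genes called stayed within 1.5 times the main count under every alternative. Of the other lists, antigen presentation and interferon genes higher in cortex than in cerebellum went from 1 to 4 without the libraries low in their neuron markers. With the mouse as replicate block 8 of the 9 genes were called between striatum and cortex in place of 7, since Csf1r passed (0.27), and total count scaling gave the same (0.31). The block changed no other call. Between sexes in the striatum, the 1 called gene, Csf1r, became 0 with litter as a further term, 0 in litter 3 alone and 0 without the libraries low in their neuron markers. The cause was not tested. The median r in the cerebellum fell from 0.812 to 0.614 without the 2 mice farthest from the median. Aif1 in the cerebellum, with as few as 20 counts, was the gene most limited by depth.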
